A study of Rattus norvegicus with 24 samples.

Results

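The potassium channel genes of rat were examined in 24 brain libraries. All protein-coding rows of the gene count table with a symbol starting with Kcn were taken, apart from 1 gene that was left out, which gave 91 genes of the 35032 in the table, on 18 chromosomes. The symbol and the annotated gene type made up the rule, which uses no measured value. By symbol they comprised 28 voltage-gated pore subunits (Kcna, Kcnb, Kcnc, Kcnd, Kcnh, Kcnq), 10 silent modulatory subunits (Kcnf, Kcng, Kcns, Kcnv), 11 auxiliary subunits (Kcnab, Kcne, Kcnip), 15 inward rectifiers (Kcnj), 14 tandem pore-domain channels (Kcnk), 12 calcium- or sodium-activated channels and auxiliary subunits of the BK channel (Kcnma, Kcnmb, Kcnn, Kcnt, Kcnu), and Kcnrg, a regulator of channel assembly. Kcnd2 and Kcnb2 were not analysed here. The rats were male Sprague-Dawley animals, 7 weeks old when bought and then given 1 week to adapt. Normal control (NC) rats were not operated, HT rats underwent partial hepatectomy, EA rats had the same surgery with electroacupuncture at the Zusanli and Sanyinjiao acupoints before and right after it, and SEA rats had the surgery with needles inserted at these points but no current. NC and HT rats were restrained for the same time as the needled rats, so restraint was common to all 4 treatments. Tissue of the hypothalamic paraventricular nucleus (PVN) and of the central amygdala (CEA) was dissected a day after the last stimulation, and each of the 8 combinations of region and treatment held 3 libraries. The methods give 12 rats in the 4 groups and state that brain samples came from different animals of 1 batch, because a single rat yields little tissue, without saying which samples this covers. The labels do not tie libraries to rats, so the p-values measure the spread between these libraries.

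Potassium channels let K+ leave the cell and so set the resting potential, the width of the action potential and the interval between spikes. Tetramers of voltage-gated subunits open on depolarization, inward rectifiers and tandem pore-domain channels carry current near rest, and calcium- and sodium-activated channels open when these ions enter during firing. In PVN neuroendocrine cells such currents shape the firing that drives hormone release, and in the central amygdala, a nucleus of mostly GABAergic neurons, they shape late and regular spiking.

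Total counts ran from 13152772 to 18607032 per library, so that 3 counts corresponded to 0.161 to 0.228 per 1000000 of the unscaled library total. Levels are given as CPM, the counts per 1000000 of the library total scaled by TMM factors. The Kcn genes took 0.306% to 0.456% of all counts in the CEA (median 0.364%) and 0.214% to 0.327% in the PVN (median 0.310%). The PVN libraries held Otp, a transcription factor of PVN neurons, at 23.6 to 30.3 CPM and the CEA libraries at 0.120 to 1.44 CPM, whereas the 8 markers of striatal and amygdalar projection neurons summed to 2696 to 6590 CPM in the CEA and 402 to 504 CPM in the PVN. Adora2a, a striatal gene, reached 142 to 523 CPM in the CEA libraries. Cldn5, a vessel gene, was at 0 in all libraries, and the summed oligodendrocyte markers were 25873 to 42977 CPM in the CEA and 9777 to 16412 CPM in the PVN. In bulk tissue, fewer cells of a type and less RNA per cell cannot be told apart. Among the PVN libraries, NC replicates 1 and 3 stood apart from NC replicate 2 and the operated rats, and HT replicate 3 had 417 CPM of the 6 summed markers of PVN neuroendocrine neurons, against 896 to 1333 CPM in the other 11. In the CEA, EA replicate 2 had 3.8% mitochondrial counts against 10.1% to 14.4% in the other 11 libraries, and 3 libraries held choroid plexus markers at 374 to 1779 CPM, against 6.85 to 25.3 CPM in the other 9. The authors left 1 CEA EA library out of their co-expression network because it differed strongly, without naming it. All CEA EA libraries were kept in the main fits here. CEA HT replicates 1 and 2 had 9 and 13 of 80 Kcn genes below 50% of the mean (taken on the log2 scale) of the other operated CEA libraries (11.25% and 16.25%, against 2.16% and 4.62% of all genes), and 0 to 2 Kcn genes were that low in the other 10 CEA libraries.

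Every Kcn gene had at least 1 count in some library, but 4 (Kcna10, Kcne1, Kcnk6 and Kcnu1) never exceeded 3 counts. Across all 24 libraries 80 of the 91 genes passed the filter on low counts and 11 did not. The latter were Kcna7, Kcna10, Kcne1, Kcne3, Kcnj1, Kcnj15, Kcnk6, Kcnk7, Kcnk18, Kcnmb3 and Kcnu1, whose highest level in any library was 1.15 CPM (Kcnj15). Per kilobase of gene length, the scale on which genes can be compared, Kcnab2 had the highest level in both regions. This Kv beta subunit stood at 104 CPM per kb in the CEA and 65.1 CPM per kb in the PVN. The 6 highest genes of the CEA also included Kcnab1 at 84.6, Kcnj10 at 61.9, Kcnc2 at 59.8 and Kcnc1 at 41.1 CPM per kb. Those of the PVN included Kcnj10 at 48.3, Kcnj16 at 41.9, Kcnc1 at 41.3 and Kcnc2 at 37.4 CPM per kb. Kcnj10 and Kcnj16 encode the inward rectifiers of glia, and Kcnc1 and Kcnc2 channels that repolarize fast-spiking neurons. Kcnab1, another Kv beta subunit, ranked 2 in the CEA and 23 in the PVN, and Kcnj16 ranked 3 in the PVN and 24 in the CEA.

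The CEA and the PVN were compared over all 24 libraries, with the 4 treatments weighted equally. Of the 80 genes tested, 59 differed between the regions (73.8%, edgeR adjusted p under 0.05), 40 with more RNA in the CEA and 19 with more in the PVN. Over all 17768 genes tested the share was 56.6%, with 27.1% higher and 29.6% lower in the CEA. The median log2 fold change, CEA over PVN, was 0.35 for the Kcn genes and -0.01 for all genes. In 24 Kcn genes the 12 CEA and the 12 PVN libraries did not overlap in CPM (30.0% of those tested, against 14.3% of all genes), 17 with the CEA above the PVN and 7 with the order turned. A called difference of more than 2-fold was found in 28 genes, 17 in favour of the CEA and 11 in favour of the PVN (against 13% of all genes, with 5.63% higher and 7.38% lower in the CEA).

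**Figure D1:**
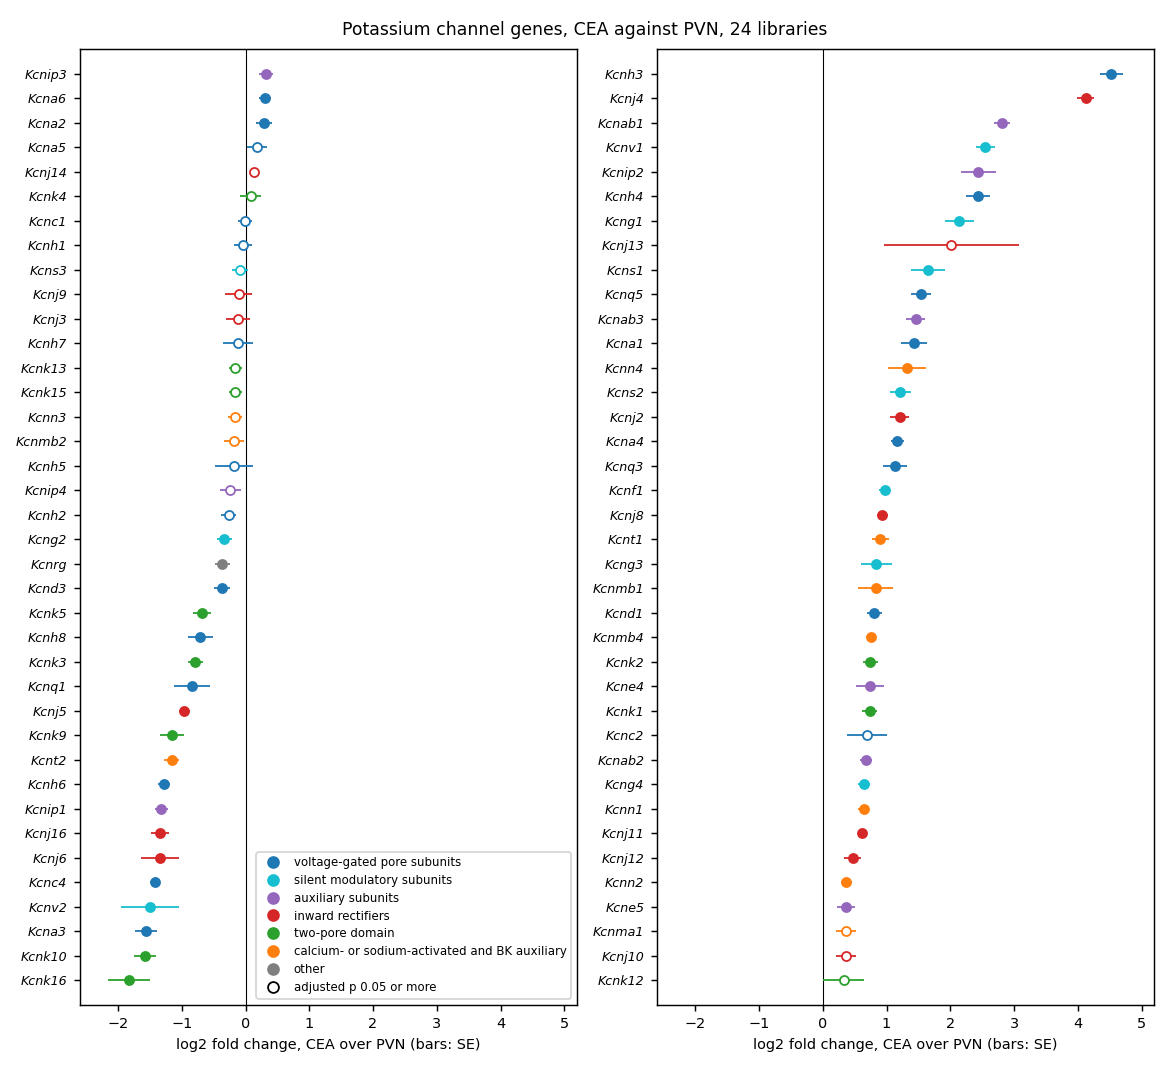
Log2 fold change of 76 of the 80 tested Kcn genes, CEA over PVN (x axis, bars are SE), ordered by size from bottom to top and from the left panel to the right, and coloured by family. Filled points had an adjusted p under 0.05; Kcnh3 and Kcnj4 stand at the top with values of 4.53 and 4.12, and Kcnk16 is lowest at -1.83.

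The 2 genes with the greatest excess in the CEA among those without overlap were Kcnh3 and Kcnj4. Kcnj4 (ENSRNOG00000013869, chromosome 7, 120717375 to 120744602, minus strand, in the table's coordinates, whose build is not named) encodes the strong inward rectifier Kir2.3. It had 51.6 to 134 CPM in the CEA (median 86.9) and 3.77 to 6.77 CPM in the PVN (median 5.13). This was a 17.4-fold difference, or 4.12 on the log2 scale (SE 0.13, edgeR adjusted p = 1.3e-14). Kcnh3 (ENSRNOG00000057315, chromosome 7, 140788987 to 140910422, plus strand) encodes a forebrain channel of the ether-a-go-go-like group. Its level was 28.7 to 76.2 CPM in the CEA (median 52.3) and 1.38 to 3.94 CPM in the PVN (median 2.13), with a log2 fold change of 4.53 (SE 0.18, edgeR adjusted p = 1.3e-13). The annotation places Spats2 over part of Kcnh3 on the same strand, so reads in the shared stretch could have been assigned to either gene. Kcnab1 (ENSRNOG00000056697, chromosome 2, 155718359 to 156009526, plus strand), which speeds the inactivation of Kv1 channels, had 190 to 411 CPM in the CEA (median 275) and 29.6 to 50.6 CPM in the PVN (median 42.0). The difference on the log2 scale came to 2.81 (SE 0.12, edgeR adjusted p = 2.7e-13). In each of these genes the lowest CEA library lay above the highest PVN library.

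In the opposite direction, Kcnc4 (ENSRNOG00000060988, chromosome 2, 210220908 to 210241455, minus strand), the inactivating Kv3.4 subunit, had 85.1 to 109 CPM in the PVN (median 99.0) and 27.2 to 53.9 CPM in the CEA (median 36.8). The log2 fold change, CEA over PVN, was -1.42 (SE 0.08, edgeR adjusted p = 5.5e-12). Kcnj16 (ENSRNOG00000004713, chromosome 10, 99388130 to 99389898, plus strand) encodes Kir5.1, which pairs with Kir4.1 in astrocytes. It had 60.1 to 81.1 CPM in the PVN (median 74.3) and 11.2 to 38.6 CPM in the CEA (median 30.0), a log2 fold change of -1.33 (SE 0.14, edgeR adjusted p = 8.1e-08). Kcnip1 (ENSRNOG00000005365, chromosome 10, 18558128 to 18942540, minus strand), a calcium-binding partner of Kv4 channels, had 39.5 to 57.4 CPM in the PVN (median 46.1) and 12.7 to 26.4 CPM in the CEA (median 18.8). The difference on the log2 scale came to -1.32 (SE 0.10, edgeR adjusted p = 9.8e-10). For all 3 genes every PVN library exceeded every CEA library.

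**Figure D2:**
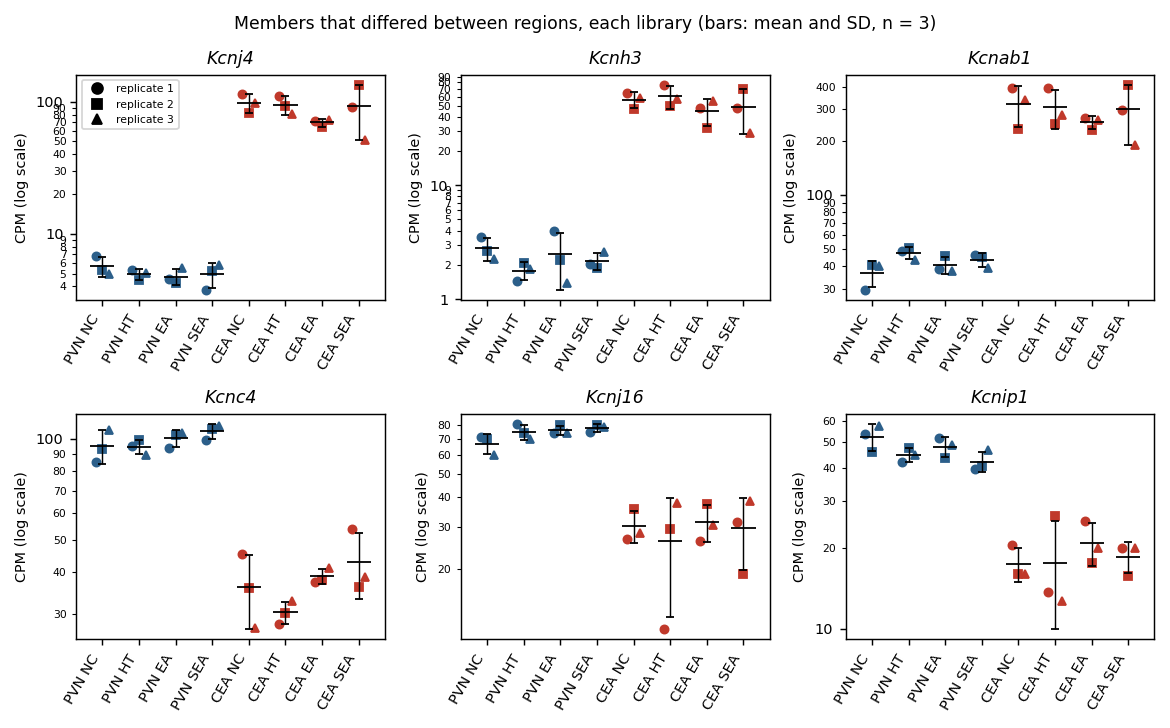
CPM (y axis, log scale) of Kcnj4, Kcnh3, Kcnab1, Kcnc4, Kcnj16 and Kcnip1 in the 3 libraries of each region and treatment (x axis); symbols are replicates, and black bars are the mean and SD. In the upper panels all CEA libraries (red) lie above all PVN libraries (blue), as for Kcnj4 at 51.6 to 134 against 3.77 to 6.77 CPM, and in the lower panels the order is turned.

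The sequence before the annotated start is shown for 2 genes with CEA excess and 2 with PVN excess, those of the largest fold without overlap for which the RefSeq promoter table (build GRCr8) had an entry, so that the base composition behind genes of opposite regional pattern can be read. The 250 bases end just before the start site, run 5′ to 3′ on the strand of the gene, and carry any GC box (GGGCGG, searched on both strands) in capitals. They lie at chr7:112954548-112954797 (minus strand), chr2:151614301-151614550 (plus strand), chr2:197788434-197788683 (minus strand) and chr10:96517074-96517323 (plus strand).
Kcnj4: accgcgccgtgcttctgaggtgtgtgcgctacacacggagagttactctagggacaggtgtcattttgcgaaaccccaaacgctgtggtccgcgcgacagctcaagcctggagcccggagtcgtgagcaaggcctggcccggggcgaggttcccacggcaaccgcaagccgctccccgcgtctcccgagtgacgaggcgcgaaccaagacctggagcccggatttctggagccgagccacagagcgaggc
Kcnab1: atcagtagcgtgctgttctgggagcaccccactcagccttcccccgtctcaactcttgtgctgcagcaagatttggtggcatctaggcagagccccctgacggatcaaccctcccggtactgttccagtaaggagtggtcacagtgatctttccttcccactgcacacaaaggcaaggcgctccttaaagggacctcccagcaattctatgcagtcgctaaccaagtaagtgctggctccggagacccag
Kcnc4: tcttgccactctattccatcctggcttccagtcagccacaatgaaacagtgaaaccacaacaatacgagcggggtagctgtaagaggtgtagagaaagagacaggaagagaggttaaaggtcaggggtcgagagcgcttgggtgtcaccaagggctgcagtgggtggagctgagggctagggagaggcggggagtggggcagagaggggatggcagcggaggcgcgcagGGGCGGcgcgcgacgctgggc
Kcnj16: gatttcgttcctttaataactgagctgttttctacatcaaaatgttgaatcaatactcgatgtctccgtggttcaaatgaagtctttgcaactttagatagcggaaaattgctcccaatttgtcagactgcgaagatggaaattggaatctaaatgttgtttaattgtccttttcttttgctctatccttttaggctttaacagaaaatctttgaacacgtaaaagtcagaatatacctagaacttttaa
The Kcnj4 stretch was 65.6% G and C with 26 CpG dinucleotides, that of Kcnab1 56.0% with 7, that of Kcnc4 60.8% with 13 and that of Kcnj16 33.6% with 6. Kcnc4 held 1 GC box and the other 3 held none. Entries were found for 62 of the 91 Kcn genes, which is under 80%, so promoters of the 2 directions were not compared. Among those 62 stretches, 30 held a GC box (48.4%, against 30.5% of all 33469 promoters of this length), 2 held TATAAA (12.9% of all promoters) and 0 held TGACGTCA (1.59% of all promoters), each searched on both strands. A match or its absence describes these letters in this window only.

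Voltage-gated pore subunits were higher in the CEA in 13 and lower in 6 of the 26 tested, with 7 not called and a median log2 fold change of 0.29. The ether-a-go-go genes went both ways: Kcnh3 and Kcnh4 were higher in the CEA (log2 fold change 4.53 and 2.43), Kcnh6 and Kcnh8 were lower (-1.28 and -0.71), and Kcnh1, Kcnh2, Kcnh5 and Kcnh7 were not called. Kcnh4 had 12.8 to 52.4 CPM in the CEA and 3.41 to 6.64 CPM in the PVN, whereas Kcnh6 had 2.52 to 5.11 CPM in the CEA and 7.07 to 10.6 CPM in the PVN. Kcnq3 and Kcnq5, subunits of the M current, which damps repetitive firing, were higher in the CEA, with log2 fold changes of 1.14 (SE 0.19) and 1.55 (SE 0.16). Kcnq5 had no overlap, at 47.4 to 139 CPM in the CEA and 26.1 to 34.6 CPM in the PVN. Kcnq1, a subunit best known from heart and inner ear, had a value of -0.84 (SE 0.28) at a level of at most 1.12 CPM. Kv1 subunits were also divided. Kcna1 and Kcna4, which form axonal and rapidly inactivating channels, were higher in the CEA (1.43 and 1.17), Kcna2 and Kcna6 slightly so (0.29 and 0.30), and Kcna3 was lower (-1.56), with 4.29 to 14.5 CPM in the CEA and 10.8 to 40.8 CPM in the PVN. Another protein-coding gene, AABR07012826.1, is annotated over Kcna3 on the same strand, so reads could have been assigned to either.

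Whereas Kcnc4 was lower in the CEA, its relatives Kcnc1 (-0.01, SE 0.11) and Kcnc2 (0.70, SE 0.31, edgeR adjusted p = 0.066) were not called. Kcnc2 ranged from 49.5 to 456 CPM within the CEA and from 55.0 to 190 CPM within the PVN. Its 5 highest CEA libraries, EA replicate 2, SEA replicate 3, NC replicates 3 and 2 and HT replicate 3, had 309 to 456 CPM. The same 5 libraries were the 5 highest in the summed thalamic markers, at 512 to 681 CPM, and the other 7 CEA libraries had 49.5 to 159 CPM of Kcnc2 beside 71.8 to 287 CPM of these markers. Kcnk12, a tandem pore-domain gene, had its 5 highest CEA values in these libraries too (10.3 to 17.6 CPM, against 1.63 to 5.78 CPM). The part of neighbouring tissue in these values was not tested. Among the A-type genes, Kcnd1 was higher in the CEA (0.81, SE 0.11) and Kcnd3 lower (-0.37, SE 0.13).

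Silent subunits, which do not form channels alone and alter the gating of Kv2 partners, had the highest family median (0.91), with 7 of 10 higher in the CEA and 2 lower. Kcnv1 had 10.3 to 32.0 CPM in the CEA and 2.77 to 5.31 CPM in the PVN, a log2 fold change of 2.55 (SE 0.15). Kcng1 had 11.5 to 55.6 CPM in the CEA and 4.0 to 9.12 CPM in the PVN (2.14, SE 0.22), and Kcnf1 had 33.7 to 63.8 and 15.9 to 31.3 CPM (0.97, SE 0.09). These genes had no overlap between regions, whereas Kcns1 (1.65) and Kcns2 (1.22) were called with overlap. Kcng2 (-0.34) was higher in the PVN. Kcnv2 was at no more than 0.745 CPM and passed the filter on low counts through the PVN libraries alone, as Kcnq1 did, while Kcnmb1 passed through the CEA libraries alone. These 3 are in the counts of called genes, 1 on the CEA side and 2 on the PVN side. They entered the test only through the region where they were higher, so their calls are not independent evidence of a difference.

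Of the 9 auxiliary genes tested, 7 were higher in the CEA and Kcnip1 was lower. All 3 Kv beta genes were among the former: besides Kcnab1, Kcnab2 had 170 to 256 CPM in the CEA and 78.9 to 150 CPM in the PVN (0.68, SE 0.09), and Kcnab3 had 24.8 to 60.1 and 12.3 to 18.8 CPM (1.46, SE 0.15). The Kv4 partners were divided, since Kcnip2 (2.44, SE 0.28) and Kcnip3 (0.32, SE 0.11) were higher in the CEA, Kcnip1 was higher in the PVN, and Kcnip4 (-0.24, SE 0.17) was not called. Kcnip1 shares its locus with Kcnmb1 on the opposite strand. The libraries were strand-specific, but the strand setting of the counting is not given in the sources used here.

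Among the 13 inward rectifiers tested, 5 were higher in the CEA, 3 were lower and 5 were not called. Of the Kir2 genes, Kcnj2 (1.21, SE 0.15) had 6.07 to 15.9 CPM in the CEA and 2.76 to 6.84 CPM in the PVN, Kcnj12 differed by 0.47 (SE 0.13), and Kcnj14 (0.14, SE 0.07) was not called. Both pores of the ATP-sensitive channels, Kcnj8 (0.94, SE 0.08) and Kcnj11 (0.61, SE 0.06), which link membrane potential to metabolism, were higher in the CEA without overlap. The summed vessel markers were 130 to 301 CPM in the CEA and 102 to 181 CPM in the PVN. Their part in the values of the vascular Kcnj8 was not tested. Of the G protein-gated subunits, which open downstream of inhibitory receptors, Kcnj5 (-0.96, SE 0.09) and Kcnj6 (-1.34, SE 0.30) were higher in the PVN, and Kcnj3 (-0.12, SE 0.19) and Kcnj9 (-0.11, SE 0.21) were not called. Kcnj10, the astrocytic Kir4.1, was not called either (0.36, SE 0.15, edgeR adjusted p = 0.051), unlike its partner Kcnj16, and a test of the difference between these genes was not made. Kcnj13, a gene of choroid plexus epithelium, had 6.59 CPM in CEA SEA replicate 2 and 3.43 CPM in CEA NC replicate 2, the 2 libraries with most choroid plexus markers (1779 and 1052 CPM). It was at 0 to 0.792 CPM in the other 10 CEA libraries and at 0 to 0.639 CPM in the PVN, and was not called (2.01, SE 1.06). Without the 3 libraries that held these markers it did not pass the filter on low counts, and 56 Kcn genes were called (39 on the CEA side and 17 on the PVN side; 51.4% of all genes).

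Tandem pore-domain channels, the leak channels, were the only main family with a negative median (-0.16), with 5 of 11 higher in the PVN and 2 higher in the CEA. Kcnk3 (TASK-1) had 45.8 to 56.5 CPM in the PVN and 16.3 to 41.0 CPM in the CEA (-0.79, SE 0.12), without overlap. Kcnk9 (TASK-3) had a log2 fold change of -1.15 (SE 0.19), Kcnk10 (TREK-2) of -1.58 (SE 0.17), Kcnk16 of -1.83 (SE 0.33) and Kcnk5 of -0.68 (SE 0.14). Kcnk16 reached 4.36 CPM at most. Kcnk2 (TREK-1, 0.75, SE 0.11) and Kcnk1 (TWIK-1, 0.73, SE 0.12) were higher in the CEA, with 62.7 to 146 and 49.1 to 111 CPM there. Kcnk3 and Kcnk9, acid-sensitive leak channels, thus lay on the PVN side, and the mechanosensitive Kcnk2 and Kcnk10 on opposite sides. Kcnk9 was not called in NC rats alone (-0.28).

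Calcium- and sodium-activated channels were higher in the CEA in 6 of 10 genes and lower in 1. The sodium-activated pair was divided, with Kcnt1 at 74.1 to 209 CPM in the CEA and 52.4 to 73.9 CPM in the PVN (0.90, SE 0.13), and Kcnt2 at 4.22 to 11.1 and 15.6 to 21.6 CPM (-1.16, SE 0.12), both without overlap. Kcnmb4, the neuronal beta subunit of the BK channel, was higher in the CEA (0.76, SE 0.08), whereas the BK pore Kcnma1 was not called (0.36, SE 0.16, edgeR adjusted p = 0.051). Small-conductance channels Kcnn1 (0.64, SE 0.08) and Kcnn2 (0.37, SE 0.08) were higher in the CEA and Kcnn3 (-0.17, SE 0.11) was not called. Kcnn4 (1.32, SE 0.29) was higher in the CEA at no more than 2.05 CPM. Kcnrg was higher in the PVN (-0.37, SE 0.12).

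The regional differences were examined within each treatment. Of the 59 genes, 55 had a value in all 4 treatments and 54 kept their sign in all of them; the exception was Kcna2, at 0.85 in NC and -0.06 in HT. In 22 genes the difference was called in each treatment alone, with 6 libraries each, 15 of them on the CEA side and 7 on the PVN side (Kcnc4, Kcnj16, Kcnip1, Kcnh6, Kcnt2, Kcnj5 and Kcnk10), and 10.9% of all genes met the same rule. In 10 of the 59 genes it was called in no single treatment. The log2 fold change of Kcnj4 ran from 3.90 in EA to 4.32 in HT and that of Kcnc4 from -1.59 in HT to -1.27 in SEA. Some genes varied more: Kcnip2 differed by 3.92 in NC and 1.42 in SEA, Kcnq3 by 2.17 in NC and 0.56 in HT, and Kcna1 by 2.58 in NC and 0.80 in HT. On the PVN side, Kcnk9 differed by -0.28 in NC and -1.88 in HT, Kcnj6 by -0.19 and -2.03, and Kcna3 by -0.89 and -2.28. These 3 were not called in NC alone, nor Kcnj6 in HT alone. In Kcnq3, Kcna1, Kcnk9, Kcnj6 and Kcna3, PVN NC replicates 1 and 3 were low, as described next. Without PVN NC replicates 1 and 3 and CEA EA replicate 2, 58 genes were called, 40 on the CEA side and 18 on the PVN side (53.2% of all genes), and the values over the remaining libraries were 0.88 (SE 0.16) for Kcnq3 and 1.18 (SE 0.19) for Kcna1. Without CEA HT replicates 1 and 2 the count was 60, with 42 and 18 (54.6% of all genes).

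In the PVN, NC replicates 1 and 3 held the 2 lowest values of the 12 libraries in 29 of the 80 Kcn genes tested (36.25%), against 18.1% of all genes. They held the 2 highest values in 6 Kcn genes (7.5%), against 15.8% of all genes. The M current subunit Kcnq3 was at 8.66 and 12.5 CPM in these libraries, at 36.4 CPM in NC replicate 2 and at 29.6 to 43.0 CPM in the operated rats. NC replicate 2 thus lay within the range of the operated rats. The axonal Kv1 gene Kcna1 had 6.07 and 9.29 CPM against 28.0 CPM in NC replicate 2 and 21.0 to 36.3 CPM after surgery. The BK pore Kcnma1 had 15.8 and 20.0 CPM against 47.9 and 42.5 to 56.9 CPM. Kcnh5, an ether-a-go-go channel, had 1.33 and 2.27 CPM against 10.5 and 7.05 to 13.1 CPM, the greatest ratio among these genes. The 29 genes included 14 voltage-gated pore subunits, 6 inward rectifiers, 3 tandem pore-domain genes, 3 calcium-activated channel genes, 2 silent subunits and 1 auxiliary subunit. They also included G protein-gated Kcnj6, Kcnj3 and Kcnj9, glial Kcnj10 and TASK-3 Kcnk9, which has the overlapping gene Trappc9 on its strand. Their median gene length was 3057 bases and their median genomic span 75.2 kb, against 2659 bases and 27.2 kb in the other 51 tested. The mitochondrial share was 8.77% and 8.62% in these 2 libraries and 7.07% to 8.01% in the other PVN libraries. Their summed vessel markers were 102 and 119 CPM, against 128 to 181 CPM in the other PVN libraries, and their summed neuron markers were 1461 and 1731 CPM, against 1557 to 1741 CPM. Their oligodendrocyte sums, 9777 and 16412 CPM, were the lowest and the highest of the 12. NC replicate 1 also had the highest ependymal sum (54.7 CPM, against 23.3 to 33.6 CPM in the other 11) and the lowest sums of thalamic (317 against 427 to 630 CPM) and of cortical and other excitatory markers (41.5 against 59.3 to 84.2 CPM). The part of these differences in the Kcn values was not tested.

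**Figure D3:**
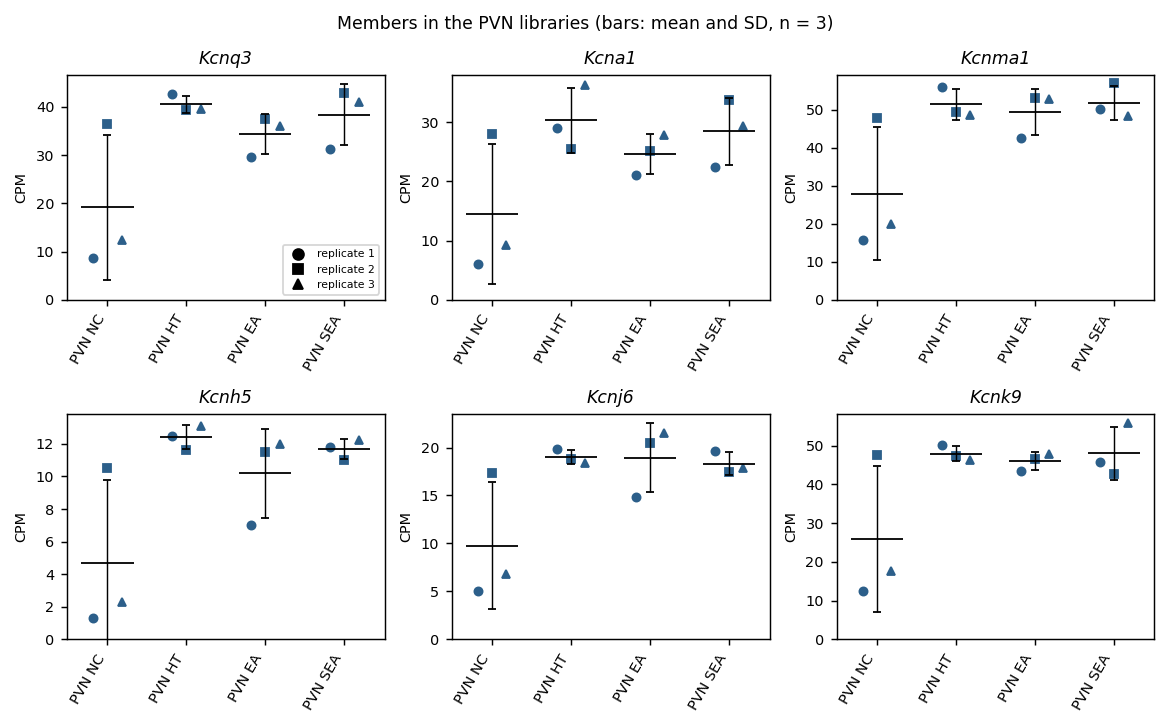
CPM (y axis) of Kcnq3, Kcna1, Kcnma1, Kcnh5, Kcnj6 and Kcnk9 in the 12 PVN libraries by treatment (x axis), with the symbols standing for replicates and the bars for the mean and SD of 3 libraries (the axis starts at 0, which hides the lower end of the NC bar of Kcnh5). NC replicates 1 and 3 lie low in every panel, at 8.66 and 12.5 CPM for Kcnq3, and NC replicate 2, at 36.4 CPM, lies among the operated rats.

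**Figure D4:**
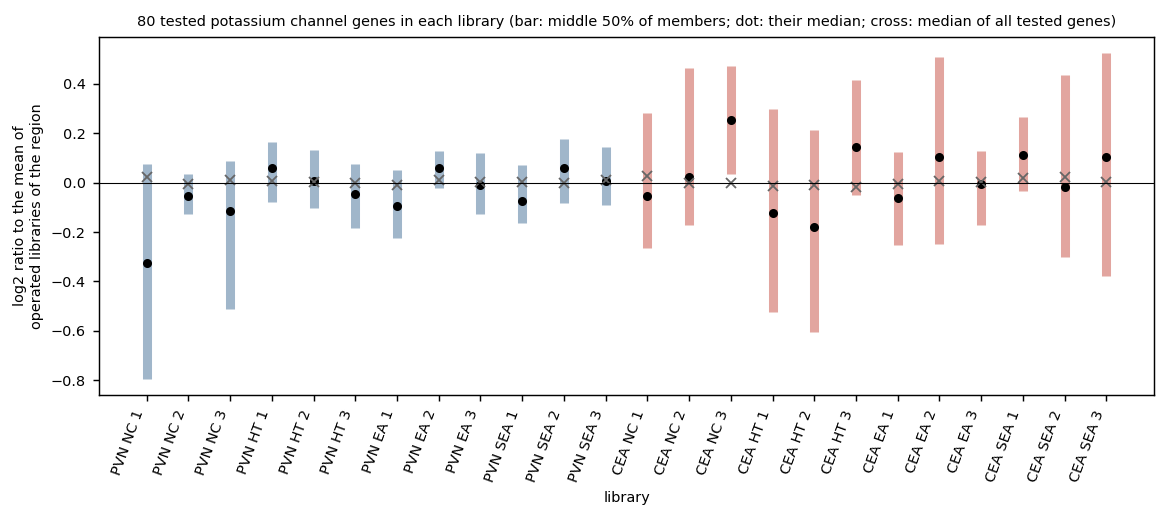
Log2 ratio (y axis, CPM plus a pseudocount of 0.5) of the 80 tested Kcn genes in each library (x axis) to their mean over the other operated libraries of the same region; bars span the middle 50% of the genes, dots are their median and crosses the median of all tested genes. PVN NC replicate 1 has the lowest median, -0.33, and its bar and that of NC replicate 3 reach farthest down among the PVN libraries.

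The effect of surgery in the PVN was read from HT against NC. No Kcn gene of 76 tested was called by edgeR at an adjusted p under 0.05 (0 called, and 0.012% of all genes). At an unadjusted p under 0.05 there were 17, with 13 higher and 4 lower in HT, where the share over all genes was 11% (5.69% higher and 5.35% lower). The 2 groups did not overlap in 23 Kcn genes (18 higher and 5 lower in HT), or 30.3%, against 17.1% of all genes. The median log2 fold change was 0.22 for the Kcn genes and -0.01 for all genes. Among the genes without overlap that had the smallest p, Kcnj12 had 25.4, 26.0 and 18.5 CPM in HT and 11.4, 17.9 and 15.5 CPM in NC (log2 fold change 0.64, SE 0.21, edgeR adjusted p = 0.417). Kcnc2 had 190, 169 and 138 CPM in HT and 55.0, 128 and 97.5 CPM in NC (0.82, SE 0.28). In both genes the lowest NC value was in replicate 1. In the other direction, Kcnk16 had 1.68, 2.06 and 1.85 CPM in HT and 4.36, 2.36 and 2.99 CPM in NC (-0.79, SE 0.29), and Kcnk15 had 11, 10.7 and 10.1 CPM in HT and 19, 11 and 17.2 CPM in NC (-0.57, SE 0.21). Kcnh4 had 4.31, 4.63 and 4.06 CPM in HT and 6.64, 5.15 and 6.03 CPM in NC (-0.46, SE 0.18). NC replicate 2 was the NC library nearest to HT in Kcnj12, Kcnc2, Kcnk16, Kcnk15 and Kcnh4.

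This count depended on 1 library. Without PVN NC replicate 2, 25 of 77 Kcn genes were called (21 higher and 4 lower in HT), where 20.2% of all genes were called; without NC replicate 1, NC replicate 3 or HT replicate 3 the count was 0. The 21 included 11 voltage-gated pore subunits and 4 inward rectifiers, with log2 fold changes of 1.93 for Kcnq3, 1.97 for Kcna1, 1.52 for Kcnma1, 1.66 for Kcnj6 and 2.77 for Kcnh5. The 4 lower were Kcnk16, Kcnk15, Kcnip1 and Kcnt1. With all libraries the log2 fold changes of Kcnq3, Kcna1, Kcnma1, Kcnj6 and Kcnh5 were 1.07 (SE 0.47), 1.06 (SE 0.51), 0.88 (SE 0.38), 0.95 (SE 0.41) and 1.38 (SE 0.65).

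The 9 libraries of operated rats against the 3 of NC gave 0 calls among 78 Kcn genes in the PVN (0.0639% of all genes by edgeR), and 39 with p below 0.05 before adjustment (34 higher and 5 lower after surgery, where all genes gave 29.8%, with 15.6% higher and 14.2% lower). The smallest adjusted p was 0.0772, for Kcnk15, which had 9.27 to 11.4 CPM after surgery and 19, 11 and 17.2 CPM in NC (-0.61, SE 0.14). Only Kcna6 and Kcnt2 had no overlap between operated and NC rats (2.56%, against 4.19% of all genes). Kcna6 had 212 to 245 CPM after surgery and 146, 205 and 211 CPM in NC (0.31, SE 0.10), and Kcnt2 had 16.1 to 21.6 CPM and 15.8, 15.6 and 15.8 CPM (0.24, SE 0.09). In Kcnt2 the 3 NC libraries were close to each other, unlike in most of the genes above. DESeq2 called 18 of the 78 genes (17 higher and 1 lower; 13.9% of all genes). Without PVN NC replicate 2, edgeR called 36 of 79 (30 higher and 6 lower; 33.7% of all genes), and without NC replicate 1 or 3 it called 0.

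Electroacupuncture was compared with surgery alone. In the PVN, EA against HT gave 0 calls among 76 Kcn genes (0.0961% of all genes by edgeR), with 6 below a p of 0.05 before adjustment, 1 higher and 5 lower in EA, or 7.89%, where the share over all genes was 5.67% (2.1% higher and 3.57% lower). The groups did not overlap in 6 Kcn genes, against 11.3% of all genes. Kcnj2, the Kir2.1 gene, had 5.40, 5.69 and 6.44 CPM in EA and 4.43, 4.30 and 4.53 CPM in HT (0.40, SE 0.15). Kcnq3 had 29.6, 37.5 and 36.0 CPM in EA and 42.6, 39.4 and 39.7 CPM in HT (-0.24, SE 0.09). Kcnab2 had 121, 138 and 128 CPM in EA and 140, 142 and 146 CPM in HT (-0.14, SE 0.06). None of these small differences passed the adjustment, with edgeR adjusted p values of 0.790, 0.814 and 0.851.

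Needling without current against HT in the PVN gave 0 calls by edgeR among 75 genes (0% of all genes), and 5 genes fell below a p of 0.05 before adjustment, with 4 higher and 1 lower (4.38% of all genes, 2.41% higher and 1.97% lower). The groups did not overlap in 5 Kcn genes, against 9.84% of all genes. Kcnj10 had 80.6, 90.0 and 87.1 CPM in SEA and 73.4, 80.2 and 58.8 CPM in HT (0.28, SE 0.11), Kcnc4 had 99.1, 107 and 109 CPM and 95.4, 98.9 and 89.7 CPM (0.15, SE 0.06), and Kcnk16 had 3.41, 3.17 and 2.30 CPM and 1.68, 2.06 and 1.85 CPM (0.67, SE 0.24). EA against SEA, which differ by the current, gave 0 calls by edgeR among 77 genes (0% of all genes), and 4 genes had p under 0.05 before adjustment, with 1 higher and 3 lower (5.21% of all genes, 2.2% higher and 3% lower). In 2 Kcn genes the groups did not overlap, against 10.2% of all genes. Kcnh6 had 10.2, 8.85 and 8.78 CPM in EA and 7.07, 7.89 and 7.69 CPM in SEA (0.30, SE 0.13). These comparisons share the HT or the EA and SEA libraries. Without PVN HT replicate 3, EA and SEA against HT gave 0 calls each, as they did with all libraries. This replicate held the lowest HT value of Kcnj10 (58.8 CPM) and of Kcnc4 (89.7 CPM), but not of Kcnk16. Kcnj2, at 6.17, 4.92 and 6.84 CPM in SEA, was above all HT libraries with either kind of needling.

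In the CEA, HT against NC gave 0 calls by edgeR among 76 Kcn genes (0% of all genes), and 3 genes fell below a p of 0.05 before adjustment, with 1 higher and 2 lower (3.75% of all genes, 2.35% higher and 1.41% lower). The groups did not overlap in 3 Kcn genes, against 10.4% of all genes, and the median log2 fold change was -0.11 for the Kcn genes and 0.02 for all. The vascular ATP-sensitive pore Kcnj8 had 22.7, 16.1 and 17.2 CPM in HT and 12.3, 14.4 and 14.0 CPM in NC (0.48, SE 0.19). The silent subunit Kcns3 had 2.35, 2.56 and 3.18 CPM in HT and 3.78, 4.61 and 4.38 CPM in NC (-0.63, SE 0.25). Both had an edgeR adjusted p of 0.918. With HT replicate 3 as the only HT library, assumed to vary like the NC group, the values were 0.35 (SE 0.18) for Kcnj8 and -0.40 (SE 0.31) for Kcns3, and 0 Kcn genes were called. Operated rats against NC gave 0 calls by edgeR among 78 genes (0% of all genes), 4 with an unadjusted p under 0.05, 2 higher and 2 lower (2.82% of all genes, 1.55% higher and 1.27% lower), and 0 without overlap (0.587% of all genes). Kcnip2, named after its values were seen, had the smallest p (unadjusted 0.00131, adjusted 0.9998), with 17.7, 7.93 and 25.9 CPM in NC and 1.92 to 10.1 CPM after surgery (-1.68, SE 0.40), so that NC replicate 2 overlapped with the operated rats.

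EA against HT in the CEA gave 0 calls by edgeR among 76 genes (0% of all genes), and 6 genes fell below a p of 0.05 before adjustment, with 3 higher and 3 lower (3.19% of all genes, 1.82% higher and 1.37% lower). The groups did not overlap in 7 Kcn genes, against 9.57% of all genes. Kcnmb2, an inactivating BK beta subunit, had 3.74, 6.08 and 4.42 CPM in EA and 0.849, 2.18 and 2.82 CPM in HT (1.26, SE 0.44). Kcnj4, the gene that most marked the CEA beside Kcnh3, had 71.7, 64.0 and 73.3 CPM in EA and 111, 93.7 and 80.3 CPM in HT (-0.46, SE 0.17). The summed markers of striatal and amygdalar projection neurons were likewise lower in each EA library, at 3819, 2866 and 4031 CPM, than in HT, at 6590, 5068 and 4531 CPM, and their part in the Kcnj4 values was not tested. Kcnc4 had 37.4, 38.0 and 41.2 CPM in EA and 28.1, 30.3 and 32.7 CPM in HT (0.34, SE 0.14). The others were Kcna3 (0.75, SE 0.30) and, lower in EA, Kcnn4 (-1.08, SE 0.44) and Kcnip3 (-0.55, SE 0.24), all 6 at an edgeR adjusted p of 0.929. Without EA replicate 2 the values of Kcnmb2, Kcnj4, Kcnc4, Kcna3, Kcnn4 and Kcnip3 were 1.05, -0.40, 0.36, 0.72, -0.82 and -0.32. With HT replicate 3 as the only HT library, assumed to vary like the EA group, they were 0.73, -0.22, 0.23, 0.57, -1.07 and -0.49, and 0 Kcn genes were called in either fit. SEA against HT gave 0 calls by edgeR among 77 genes (0% of all genes), and 3 genes had p under 0.05 before adjustment, with 2 higher and 1 lower (3.07% of all genes, 1.38% higher and 1.69% lower). There was no overlap in 5 Kcn genes, against 10.1% of all genes. Kcnmb2 was at 4.48, 3.45 and 5.75 CPM in SEA (1.18, SE 0.45), Kcnc4 at 53.9, 36.1 and 38.6 CPM (0.46, SE 0.19) and Kcnj8 at 14.7, 14.6 and 12.9 CPM (-0.44, SE 0.18), against the same HT libraries. EA against SEA gave 0 calls by edgeR among 76 genes and 0 with an unadjusted p under 0.05, where all genes gave 0% and 1.99% (1.15% higher and 0.839% lower), and 2 Kcn genes had no overlap, against 6.83% of all genes.

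Whether the regions differed in their response was tested by an interaction term. By edgeR, 0 of 78 Kcn genes differed in the HT effect (0% of all genes), and 17 had an unadjusted p under 0.05, 15 with the more positive effect in the PVN and 2 with the more negative (12.1% of all genes, 7.24% and 4.84%). Without PVN NC replicate 2 the count was 9 (8 more positive and 1 more negative; 3.93% of all genes), among them Kcna1, Kcnh5, Kcnk9, Kcnma1 and Kcnq3 and, more negative, Kcnk15. The EA effect differed in 0 of 78 genes (0% of all genes) and in 2 at an unadjusted p under 0.05, Kcna3, more negative in the PVN, and Kcnk2, more positive (4.52% of all genes, 2.94% and 1.58%).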

How the data were processed

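Strand-specific RNA-seq of the PVN and CEA was read as the table of counts per gene that the authors deposited. They aligned reads with HISAT2 and counted them with featureCounts, whose versions, and the strand setting, are not given in the sources used here. The methods name the rat build mRatBN7.2, the submitters' processing notes list GRCh38 (hg38), and the table names none; its largest chromosome 1 coordinate is 282724300. Coordinates are therefore printed as the table has them. Gene length (in bases) was the length the authors deposited with each gene. The table held 1 stray header line, which was skipped; it exchanges the numbers of CEA EA replicates 2 and 3, and the main header was followed. The members and lists were chosen with earlier results of these data known.

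Each group held 3 libraries. Counts of all genes were fitted in edgeR 4.0.16 (R 4.3.3; limma 3.58.1) and compared by its quasi-likelihood test, over genes passing filterByExpr, with TMM factors and Benjamini-Hochberg adjustment over all genes tested, at a threshold of 0.05. Fits were made on the libraries of the groups compared, on the 12 of a region for operated against NC, and on all 24 for the regions. The SE of a log2 fold change is its size divided by the square root of F. CPM used TMM-scaled totals, and the depth above limits counting error only. Scripts were tested on simulated data. Alternatives were DESeq2 1.42.0, its size factors in edgeR, no filter, each library left out, sets of libraries that stand apart left out, a replicate block and single treatments. No main fit paired same-numbered libraries. Only for CEA HT and NC did their deviations correlate in 3 of 3 pairs, at 0.18 to 0.29. There too the replicate block was an alternative only. Named genes were, between regions, the 8 in each direction with the largest fold among called genes without overlap (7 in the PVN), in each treatment comparison up to 3 in each direction with the smallest unadjusted p under 0.05 and no overlap, the 6 with the highest level per kb in each region, and genes of textbook role; others were named after their values were seen. Some genes that the rule names are not reported here by name, but stay in the counts. Motif and promoter counts used RefSeq, build GRCr8.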

Additional observations from a re-analysis of the deposited data

How the results depend on the processing

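For the regions, the count of 59 Kcn genes was 57 to 62 when each library was left out, 62 with DESeq2 size factors (56.6% of all genes), 62 without the filter (37.7%), 63 with DESeq2 (57.4%) and 52 with operated rats alone (51.9%). It was 42 with NC alone (26.4% of all genes), 42 with EA alone (27.8%), 30 with HT alone (21.3%) and 36 with SEA alone (30.5%), each with 6 libraries. With a replicate block the count was 61, and 62 with the numbers of CEA EA replicates 2 and 3 exchanged, an alternative chosen after seeing the data, as were those that leave out 2 or 3 libraries, which gave 56 to 60 for the regions and 0 for the comparisons with CEA HT. The numbers do not pair the regions over all treatments (5 of 12 correlations over 0.1, from -0.20 to 0.29), but in NC the 3 same-numbered pairs had 0.13 to 0.29; with a replicate block, an alternative added after seeing the data, NC alone gave 44 (27.5% of all genes). The block changed no other count. Leaving out libraries gave 0 to 25 for HT against NC in the PVN, 0 to 36 for operated against NC in the PVN and 0 to 9 for the HT effect between regions, the upper values without PVN NC replicate 2 each time; DESeq2 gave 18 for operated against NC in the PVN. Their cause was not tested. All other counts of treatment effects stayed at 0 when each library was left out. Uncalled regional values changed sign for Kcnc1 (0.013 with DESeq2 size factors and with DESeq2, 0.015 without the filter, -0.071 to 0.047 when each library was left out, 0.27 in NC alone, 0.24 there with the block, 0.042 without the 3 libraries with choroid plexus markers, 0.026 without CEA HT replicates 1 and 2), Kcnj3 (0.64, 0.61, 0.022 and 0.017 in the last 4 of these), Kcnj9 (0.19 in NC alone, 0.093 with the block, 0.044 without CEA HT replicates 1 and 2), Kcnn3 (0.13 in NC alone, 0.20 with the block) and Kcnma1 (-0.23 in HT alone). Of all 21 uncalled genes 15 changed sign in some single treatment or in the operated rats, among them Kcnh5 (1.26 in NC, -1.20 in HT), Kcnh7 (0.85 in NC, -0.99 in HT), Kcnk12 (-0.12 in HT) and Kcnh1 (0.23 in NC). Of the other values of named genes under alternatives, 1501 kept their direction and side of the threshold, 40 passed it anew and 23 lost it. Depth limits the lowest levels, since 3 counts correspond to 0.161 to 0.228 CPM before TMM scaling.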

Other observations

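Genes outside the Kcn symbols whose proteins bind, traffic or regulate these channels, or share their current, were counted from a list of 18, of which 17 were in the table and 15 were tested. Between the regions 5 were higher in the CEA and 6 lower (edgeR adjusted p under 0.05), where 56.6% of all genes were called, 27.1% higher and 29.6% lower. The sulfonylurea receptor gene Abcc9, the partner of Kcnj8, was higher in the CEA (log2 fold change 0.70, SE 0.11), as Kcnj8 was, and Abcc8 was not called (0.13, SE 0.09). The part of the vessel markers in the regional Abcc9 values was not tested either. Dpp10 (-0.85, SE 0.12) and Dpp6 (-0.19, SE 0.05), which traffic Kv4 channels, were higher in the PVN. The pacemaker genes were divided, with Hcn2 higher in the CEA (0.72, SE 0.09), Hcn3 (-0.93, SE 0.09) higher in the PVN and Hcn4 not called (0.02, SE 0.24). Ank3, which anchors Kcnq3 at the axon initial segment, was higher in the CEA (0.52, SE 0.07). In the treatment comparisons 1 of the 15, Abcc9, was called, for operated against NC rats in the PVN, where 0.0639% of all genes were called. It had 16.3, 23.7 and 21.9 CPM in NC and 30.7 to 38.0 CPM in the 9 libraries of operated rats, without overlap (0.70, SE 0.11, edgeR adjusted p = 0.0466). The summed vessel markers were 102, 155 and 119 CPM in the NC and 128 to 181 CPM in the operated libraries, and their part in the Abcc9 values was not tested. Its partner Kcnj8 differed by 0.28 (SE 0.14, adjusted p = 0.195).

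Some Kcn genes are neighbours with no other protein-coding gene between them, in 10 pairs by the table's coordinates. Kcnj16 and Kcnj2 lie 47.5 kb apart on chromosome 10, on the same strand, and had opposite regional values (-1.33, SE 0.14, and 1.21, SE 0.15). Kcna3 and Kcna2, 69.2 kb apart on chromosome 2, also differed in sign (-1.56, SE 0.17, and 0.29, SE 0.12). On chromosome 4, Kcna1 (1.43, SE 0.21) lies between Kcna5 (0.17, SE 0.16, not called) and Kcna6 (0.30, SE 0.09). Kcnk16 and Kcnk5 on chromosome 15 were both higher in the PVN (-1.83, SE 0.33, and -0.68, SE 0.14).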
